A study of Mus musculus with 8 samples.

Results

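The optic fissure is the ventral groove of the optic cup, and its edges meet and fuse while the neural retina and the pigment epithelium form around it. Its first and last sampled stages were compared here, embryonic day 12.5 (E12.5) with embryonic day 10.5 (E10.5), to give the net change over the days in which the fissure closes. Fissure tissue of wild-type C57BL/6 embryos was microdissected by laser capture from frozen sections, and each array held a pool of 3 embryos of 1 stage. There were 3 arrays at E10.5 (A, B and C) and 2 at E12.5 (A and B). All groups were untreated wild type, and the 3 arrays of E11.5 entered the fit to help estimate the spread between arrays and are given as description only. The members were the probe sets with exactly 1 gene symbol, 34945 of the 45037 probe sets that are not controls. Of these, 22650 were bright enough to be kept, and they covered 13050 genes, each represented by its brightest probe set. Values are deposited log2 signals, in which a difference of 1 is a 2-fold change.

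In the mouse, closure of the fissure follows the patterning of the ventral cup and stalk by hedgehog, BMP and retinoic acid signals and by factors such as Vax1, Vax2 and Pax2. A basement membrane that separates the fissure edges is then remodelled and the epithelia join. Over the same days the inner layer of the cup starts to make neurons, of which the retinal ganglion cells come first under the control of Atoh7, while the outer layer makes melanin. Captured fissure edges can hold inner layer, outer layer and the mesenchyme and vessels between them, and in such bulk samples a smaller share of a cell type and less RNA per cell of it cannot be told apart.

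A gene was called when its adjusted p, from limma with Benjamini-Hochberg adjustment over 27022 kept probe sets, was under 0.05. Of the kept probe sets 1255 were called, which is 4.64%, with 833 higher (3.08%) and 422 lower (1.56%) at E12.5, and the stages did not overlap for 45.0%. Among those with 1 gene symbol the shares were 4.77% called, 3.13% higher and 1.64% lower, with no overlap for 45.9%. Over genes, 687 of 13050 were called (5.26%), 455 higher (3.49%) and 232 lower (1.78%). The last 2 shares are the ones to set beside the counts of each list below. The E10.5 and E12.5 arrays did not overlap for any of these 687, but they also did not overlap for 47.6% of all genes tested, so separation of 3 arrays from 2 says little by itself. The called rises were larger than the called falls. A called rise had a median change of 1.67 on the log2 scale, from a median signal of 5.26 at E10.5 to 7.12 at E12.5, and a called fall a median change of -1.38, from 7.65 to 6.21. Over 4-fold, 148 genes rose and 29 fell, and over 16-fold, 14 rose and 1 fell. Rises and falls were not measured over the same range. The filter used the mean over all 8 arrays, so a gene near the lower end at E10.5 could be kept through bright E12.5 arrays. A fall cannot be measured below that end, near 3 to 4. The part of this in the larger rises was not tested. The median change of all 13050 genes was -0.10, and it was -0.07 after quantile normalization.

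**Figure D1:**
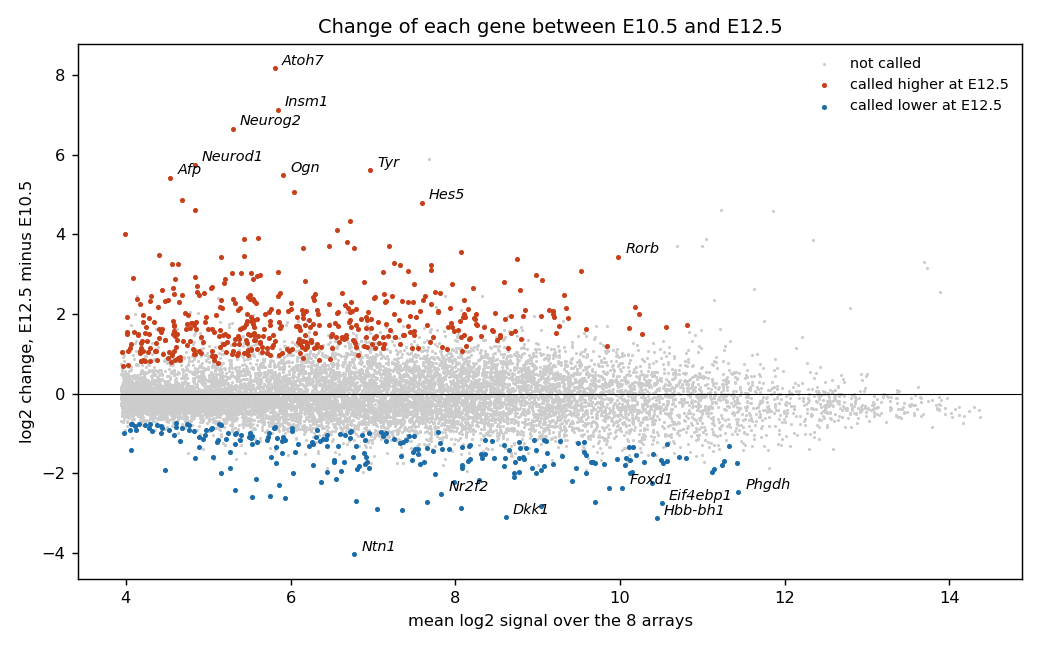
Change of each gene between E10.5 and E12.5 in log2 units (vertical) against its mean log2 signal over the 8 arrays (horizontal). Each point is 1 of 13050 genes; red points are the 455 genes called higher, blue points the 232 called lower and grey points those not called. The points that reach farthest up, such as Atoh7 at 8.17 and Insm1 at 7.13, lie well past the farthest called fall, Ntn1 at -4.04.

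The arrays were not alike within a stage, and this bears on what was called. E12.5 B was over 1 log2 unit above E12.5 A for 187 genes and below it by that much for 62. Called genes numbered 306 higher and 70 lower without E12.5 A, and 103 higher and 13 lower without E12.5 B. They numbered 292 higher and 77 lower without E11.5 B, an array outside the comparison that adds only to the estimate of spread. At E10.5, the arrays A and C read more than 2 log2 units below each of the other 6 arrays on 28 probe sets, with none above by that much. Of those 28, limma called 0, and 26 had an unadjusted p under 0.05. Both counts follow in part from how the 28 were picked, so they do not show how far such differences reach other genes. With E10.5 B as the only E10.5 array, 80 genes were called higher and 33 lower, on the assumption that a lone array varies like the other stages. Of 115 called genes that are named by the rules used here, 42 stayed called whichever of the 8 arrays was left out. Array medians lay between 4.37 and 4.48. The 99th percentiles were 12.47 to 12.93 on the E10.5 and E12.5 arrays, but 11.19, 11.83 and 12.38 on E11.5 A, B and C. The part of this in the E11.5 values of single bright genes given below was not tested. The Gapdh control signal of the 3 prime end exceeded that of the 5 prime end by 4.47 ± 0.26 (SD, n = 3) at E10.5 and 4.97 ± 0.27 (SD, n = 2) at E12.5, without overlap (exact permutation test, two-sided, p = 0.2). The same difference for Actb was 6.92 ± 0.07 (SD, n = 3) and 7.04 ± 0.24 (SD, n = 2), with overlap (exact permutation test, two-sided, p = 0.4). The smallest p that 3 against 2 arrays allow is 0.1. The part of RNA quality in the results below was not tested.

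The largest rises were those of transcription factors that commit retinal cells to a neuronal fate. Atoh7, the basic helix-loop-helix factor required to make retinal ganglion cells, read 3.81, 3.72 and 3.91 on the E10.5 arrays and 11.46 and 12.51 on the E12.5 arrays. It was close to the floor of the measured signals on the 3 E10.5 arrays and among bright genes on both E12.5 arrays. Its change was 8.17 ± 0.29 (SE), or 289-fold, with an adjusted p of 9.2e-08, and both of its probe sets were called. On the E11.5 arrays Atoh7 still read 3.63, 3.76 and 3.66. Insm1, a zinc finger factor of newly forming neurons, went from 3.70, 3.26 and 4.21 to 10.39 and 11.32, a rise of 7.13 ± 0.45 (SE; adjusted p = 1.12e-05). Neurog2, a proneural factor upstream of Atoh7 in the retina, went from 3.98, 3.46 and 3.74 to 9.74 and 11.02, a rise of 6.65 ± 0.34 (SE; adjusted p = 2.27e-06). Neurod1, which acts in neuronal differentiation, went from 3.70, 3.37 and 3.28 to 8.75 and 9.65, a rise of 5.75 ± 0.26 (SE; adjusted p = 7.42e-07). For each of these 4 genes every E11.5 array lay nearer to the E10.5 mean than to the E12.5 mean, and both E12.5 arrays stood far above. The proneural list, of factors that start or carry out the commitment to neurons, had 23 measured genes. Of these 11 rose and 0 fell, with a median change of 0.94 against -0.10 over all genes. Onecut1, a factor of early retinal progenitors, rose by 2.66 ± 0.30 (SE), and Foxn4, which confers competence for early retinal fates, by 2.06 ± 0.25 (SE). The members not called included Neurog1 at -0.07, Sox11 at 0.07 and Sox4 at 0.94. The list had 11 called rises without E12.5 A, 8 with B left out instead, and 6 with E10.5 B as the only E10.5 array.

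Because Atoh7 is read here from near background to the brightest rise, its promoter is shown, as the 250 bases before its annotated start in RefSeq of assembly GRCm38.p6, at chr10:63099535-63099784 on the plus strand. Capitals mark the proneural E-box CAGNTG, the letters that proneural factors are known to bind, searched on both strands.
Atoh7: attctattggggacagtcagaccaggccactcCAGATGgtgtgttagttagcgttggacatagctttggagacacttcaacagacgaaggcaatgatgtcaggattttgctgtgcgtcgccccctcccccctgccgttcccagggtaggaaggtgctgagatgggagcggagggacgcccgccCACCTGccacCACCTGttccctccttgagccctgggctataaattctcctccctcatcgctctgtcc
There were 3 such matches. The E-box is short and common, and 44.8% of 32851 promoters of the same length held it. That share counts promoter entries, while a called gene counted once if any of its entries held a match. Of the 11 called proneural genes, 9 had a promoter entry and 3 of those held a match (Atoh7, Gadd45g and Hes6), so the match is a description of these letters and no site of binding.

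**Figure D2:**
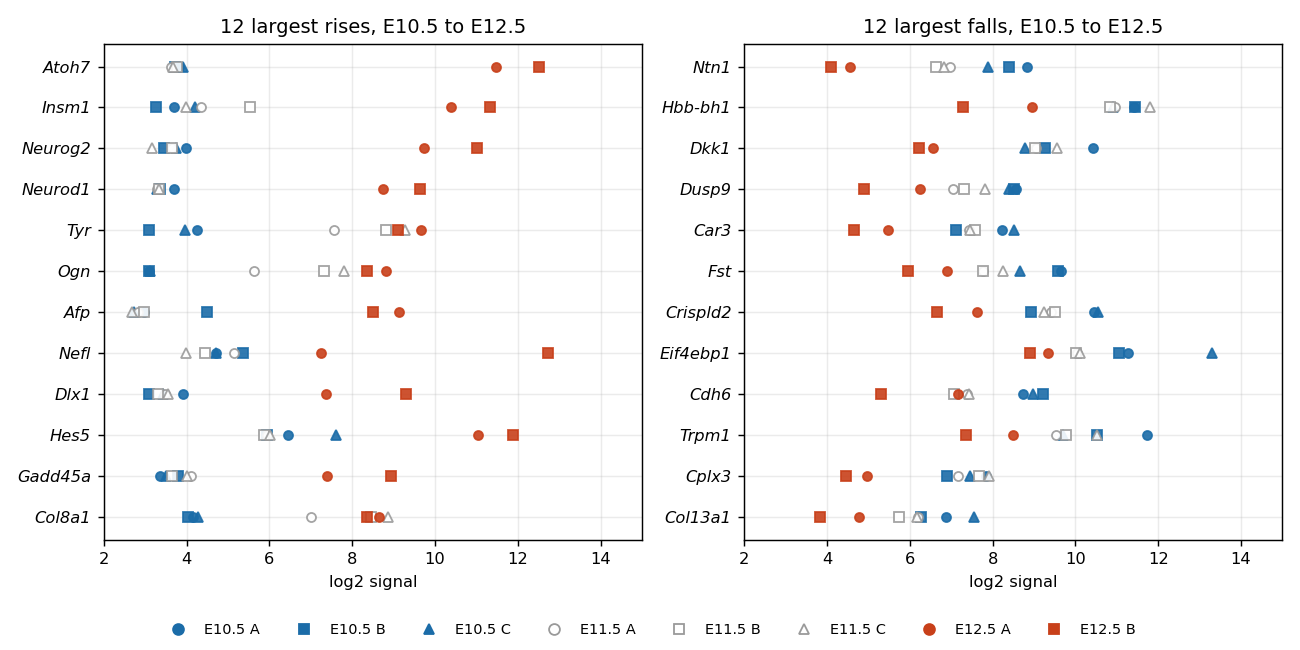
Log2 signal (horizontal) on each of the 8 arrays for the 12 genes with the largest called rises (left) and the 12 with the largest called falls (right). Colours stand for the stage, symbols for the arrays A to C, and E11.5 is drawn open. Atoh7, Neurog2 and Neurod1 sit at 3.98 or less at E10.5 and E11.5 and between 8.75 and 12.51 at E12.5, while Tyr, Ogn and Col8a1 are already raised at E11.5.

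Some genes of postmitotic neurons rose as well, but the 2 E12.5 arrays differed in them. Of 45 measured genes of the neuronal cytoskeleton, axon and synapse, 13 rose and 0 fell, with a median change of 1.43. E12.5 B was above E12.5 A for 43 of the 45, by more than 1 log2 unit for 25, and by a median of 1.31. Over all genes B was above A for 4770 of 13050, and the median of B minus A was -0.08. Nefl, the light neurofilament subunit, read 4.70, 5.35 and 4.70 at E10.5 and 7.24 and 12.72 at E12.5. Both E12.5 arrays lay above the 3 E10.5 arrays, but they differed from each other by more than the lower one differed from E10.5. The fitted rise of 5.06 ± 1.09 (SE; adjusted p = 0.0249) became 7.80 without E12.5 A and 2.32 with B left out instead, and its call was lost without E10.5 A and without E10.5 C. Dcx, the microtubule-binding doublecortin of migrating neurons, read 3.60, 3.42 and 3.69 at E10.5 and 5.04 and 9.06 at E12.5, and Tubb3, the neuronal beta-tubulin, 3.91, 3.50 and 3.34 against 4.49 and 7.42; both were called and were picked for mention after their values were seen. Rises that held whichever array was left out were those of Stmn4 (2.44 ± 0.35, SE), a stathmin that binds tubulin, and of the nicotinic receptor subunits Chrna3 (2.05 ± 0.25, SE) and Chrnb4 (1.71 ± 0.25, SE). Chrna3 read 5.77, 6.07 and 6.18 at E10.5 and 7.83 and 8.28 at E12.5. The calls of Ncam1, Tagln3 and Syt1, a neuronal adhesion molecule, an actin-binding protein and the calcium sensor of synaptic vesicles, were lost without E12.5 B, and that of Ncam1 without E10.5 A too. The list had 26 called rises without E12.5 A, 8 without E11.5 B, 5 without E12.5 B, and 3 with E10.5 B alone at E10.5.

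Some factors of retinal ganglion cells rose. Of 11 measured, 4 rose and 0 fell, with a median change of 1.45. E12.5 B was above E12.5 A for 7 of the 11, and the median of B minus A was 1.92. Dlx1, a homeobox factor of ganglion cell development, read 3.91, 3.09 and 3.43 at E10.5 and 7.37 and 9.29 at E12.5, a rise of 4.86 ± 0.43 (SE; adjusted p = 0.000103). Isl1, the LIM homeobox factor that acts with the Pou4f factors downstream of Atoh7, read 4.25, 4.49 and 4.37 at E10.5 and 6.31 and 9.27 at E12.5, a rise of 3.42 ± 0.59 (SE; adjusted p = 0.00866). Both calls held whichever array was left out. Ebf3 rose by 3.02 ± 0.63 (SE) and Ebf1 by 2.91 ± 0.75 (SE), and both, helix-loop-helix factors of differentiating ganglion cells, depended on the array E12.5 B. Ebf1 read 4.26 and 8.15 on the E12.5 arrays A and B, and its adjusted p of 0.0498 passed the threshold in the fit with all arrays, but not without E12.5 B, nor without any 1 of the 6 arrays of the earlier stages. Pou4f1 read 6.59, 6.49 and 8.06 at E10.5 and 6.88 and 10.12 at E12.5, and was not called. The list had 6 called rises without E12.5 A, 2 with B left out instead and 1 with E10.5 B as the only E10.5 array.

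**Figure D3:**
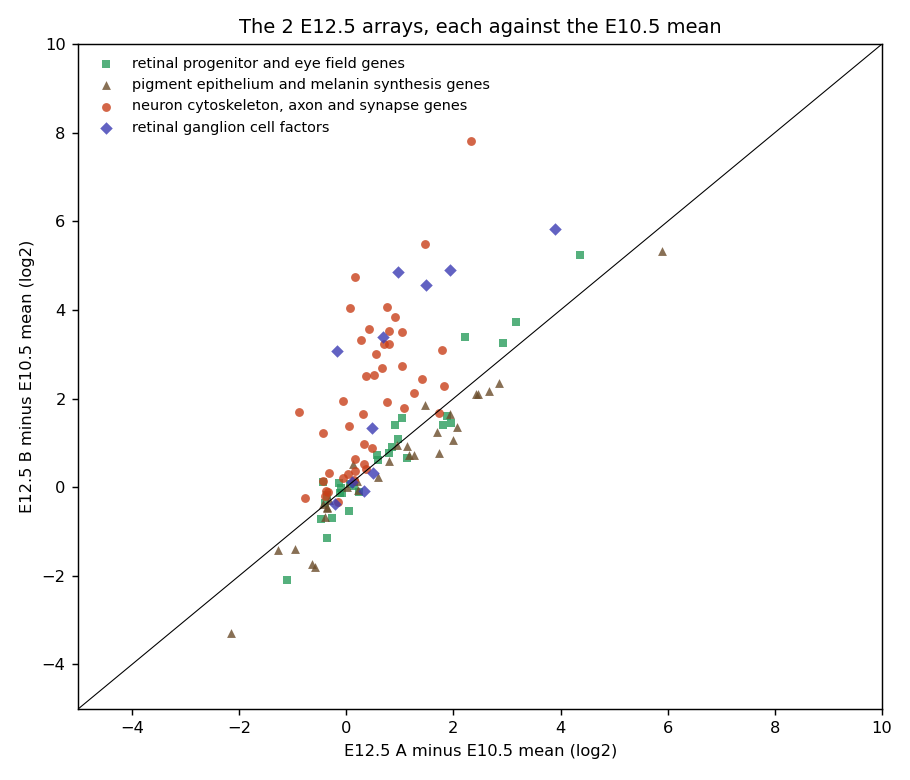
Log2 signal of E12.5 A (horizontal) and E12.5 B (vertical), each minus the E10.5 mean, for the measured genes of 4 lists. The line marks equal change on both arrays. Of the neuronal structural genes 43 of 45 lie above the line, and of the ganglion cell factors 7 of 11, with medians of B minus A of 1.31 and 1.92. The medians of progenitor genes (0.02) and pigment genes (-0.31) are closer to it.

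Progenitor genes did not follow 1 pattern. Of 30 measured genes of retinal progenitors and the eye field, 8 rose and 1 fell, with a median change of 0.35. After quantile normalization 13 were called higher and 1 lower. Hes5, a Notch target that keeps progenitors undifferentiated, read 6.45, 5.93 and 7.60 at E10.5 and 11.03 and 11.89 at E12.5, a rise of 4.80 ± 0.43 (SE; adjusted p = 0.000107). Rorb, an orphan nuclear receptor expressed by retinal progenitors, read 9.16, 8.13 and 9.03 at E10.5 and 11.95 and 12.49 at E12.5, a rise of 3.45 ± 0.39 (SE; adjusted p = 0.000629) seen in 3 of 3 probe sets. Both E12.5 arrays of either gene were above the E10.5 arrays by more than the spread within a stage. Dkk3, a secreted member of the Dickkopf family, rose by 3.09 ± 0.43 (SE), and Fgf15, a growth factor of retinal progenitors, by 2.80 ± 0.38 (SE). Those 4 calls held whichever array was left out. Sfrp2, a secreted Wnt modulator, and Mab21l1, a gene needed for eye formation, rose by 1.74 ± 0.37 (SE) and 1.70 ± 0.35 (SE), and their calls were lost without either E12.5 array, that of Sfrp2 also without E11.5 B. The eye field factors Six3 (-0.03), Six6 (0.09), Lhx2 (-0.12), Rax (-0.48), Sox2 (0.79) and Pax6 (1.60) were not called. The list had 4 called rises with either E12.5 array left out, 5 without E11.5 B and 3 with E10.5 B as the only E10.5 array.

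In the Notch pathway, in which a ligand on a future neuron holds its neighbours in the progenitor state, 6 of 25 measured genes rose and 0 fell, with a median change of 0.07. The ligand Dll1 read 4.06, 4.68 and 4.66 at E10.5 and 8.08 and 8.61 at E12.5, a rise of 3.88 ± 0.27 (SE; adjusted p = 2.19e-05). Its E11.5 arrays read 4.27, 4.48 and 4.69, within the E10.5 range or close to it. Dner, a neuronal transmembrane protein with EGF repeats, rose by 4.02 ± 0.73 (SE), with 5.16 and 8.90 on the E12.5 arrays A and B. Hey1, a Notch target, rose by 2.81 ± 0.44 (SE), Mfng, a glycosyltransferase that modifies Notch, by 2.09 ± 0.36 (SE), and the receptor Notch1 by 1.30 ± 0.30 (SE). The call of Mfng was lost without E12.5 B, and that of Notch1 without either E12.5 array, E10.5 B, E10.5 C or E11.5 B. The other ligands of the list, Jag1 (-1.30) and Jag2 (-0.60), and the receptors Notch2 (-0.74) and Notch3 (-0.75) were not called. The list had 5 called rises without E12.5 A, 4 with B left out instead and 2 with E10.5 B as the only E10.5 array.

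No measured gene of the cell cycle list passed the test, while some genes tied to leaving the cycle rose. Of 53 measured cell cycle genes limma called 0 in either direction, and their median change was -0.20. Of the 53, 12 had an unadjusted p under 0.05, a limit that 5993 of all 27022 kept probe sets passed. After quantile normalization 2 of the 53 were called lower and 1 higher. Mki67, a marker of dividing cells, had a mean of 12.18 at E10.5 and 12.10 at E12.5. The 2 genes of the list with the smallest p were Mcm5, a helicase subunit of DNA replication, at -1.35 ± 0.39 (SE; adjusted p = 0.0699) and Ccne2, a cyclin of S phase entry, at 0.99 ± 0.30 (SE; adjusted p = 0.0846). Of 18 measured genes that act in cell cycle exit or arrest, 4 rose and 0 fell, with a median change of 0.79. Gadd45a, a stress and growth arrest gene, read 3.35, 3.80 and 3.50 at E10.5 and 7.40 and 8.93 at E12.5, a rise of 4.61 ± 0.36 (SE; adjusted p = 4.75e-05). Gadd45g, its relative that is transient in newborn neurons, rose by 1.75 ± 0.26 (SE). Tob1 and Btg2, of an antiproliferative family, rose by 1.69 ± 0.34 (SE) and 1.39 ± 0.34 (SE); the call of Tob1 was lost without either E12.5 array, and that of Btg2 without E10.5 A, E10.5 B, E12.5 B or any 1 of the E11.5 arrays. The list had 3 called rises without E12.5 A, 2 with B left out instead and 1 with E10.5 B as the only E10.5 array.

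Coloboma is the eye defect left by an open fissure. Among genes tied to it or to fissure closure, 7 of 55 measured fell (12.7%) and 3 rose (5.45%), with a median change of -0.17. Over all genes 1.78% were called lower and 3.49% higher. After quantile normalization 8 were called lower and 7 higher. Ntn1, which encodes netrin-1, a secreted laminin-related protein required for fissure closure in mice, had the largest fall of the whole comparison. It read 8.83, 8.40 and 7.88 at E10.5 and 4.56 and 4.10 at E12.5, and the E11.5 arrays lay between them at 6.97, 6.63 and 6.83. The 3 stages did not overlap. The fall was 4.04 ± 0.30 on the log2 scale (SE; 16.4-fold, adjusted p = 3.57e-05), and it held whichever array was left out. The list was drawn from genes known to the field, and Ntn1 was known from earlier results of these data when it was chosen.

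The other closure genes that fell were transcription regulators and 2 genes of signalling. Zfp503, a zinc finger repressor required for closure, read 11.12, 10.60 and 11.03 at E10.5 and 9.44 and 8.42 at E12.5, a fall of 1.98 ± 0.36 (SE; adjusted p = 0.0121) seen in 2 of 2 probe sets. Sall1, a zinc finger factor, read 5.94, 6.84 and 7.87 at E10.5 and 4.81 and 4.40 at E12.5, a fall of 2.28 ± 0.43 (SE; adjusted p = 0.0132). Both were not called without E12.5 B. Its relative Sall4 fell by 1.38 ± 0.27 (SE), and was not called without either E12.5 array. Lrp2, the endocytic receptor megalin that binds hedgehog and BMP ligands, fell by 1.60 ± 0.35 (SE); the call was lost without E10.5 A, E10.5 C, E11.5 B or E12.5 B. Otx2, a homeobox factor of the pigment epithelium, fell by 1.34 ± 0.34 (SE; adjusted p = 0.0469), lost without E10.5 A, E10.5 C, E11.5 B or either E12.5 array. Bmp4, a BMP ligand of the optic cup, read 4.12, 4.37 and 4.94 against 3.55 and 3.58, near the lower end of the range. Its fall of 0.91 ± 0.22 (SE; adjusted p = 0.0375) was lost without either E12.5 array and without any 1 of the E11.5 arrays.

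The 3 closure genes that rose are tied to adhesion and matrix. Itgb8, the integrin subunit that activates TGF-beta, read 7.30, 7.61 and 6.90 at E10.5 and 9.86 and 9.99 at E12.5, a rise of 2.65 ± 0.29 (SE; adjusted p = 0.000511). Cdh4, which encodes R-cadherin, read 7.34, 6.82 and 7.48 at E10.5 and 9.31 and 9.62 at E12.5, a rise of 2.25 ± 0.30 (SE; adjusted p = 0.00172) in 2 of 2 probe sets. Both held whichever array was left out. Smoc1, a secreted matrix protein that modulates BMP signals, rose by 1.15 ± 0.25 (SE), and its call was lost without E11.5 B or either E12.5 array. The ventral factor Vax1 read 8.66, 9.01 and 8.97 at E10.5 and 7.87 and 7.89 at E12.5, and missed the threshold with an adjusted p of 0.0501. Its E10.5 and E12.5 arrays did not overlap, and the other of its 2 probe sets was called lower. Vax2 stood at 0.98 ± 0.42 (SE; adjusted p = 0.198), Bmp7 at -0.88 ± 0.35 (SE; adjusted p = 0.163), Zfp703 at -0.51 ± 0.24 (SE; adjusted p = 0.229) and the N-cadherin gene Cdh2 at -0.38 ± 0.39 (SE; adjusted p = 0.601). The brightest probe set of Aldh1a3, the retinoic acid enzyme of the ventral cup, read 11.69 ± 0.53 (SD, n = 3) at E10.5 and 11.72 ± 0.74 (SD, n = 2) at E12.5. Another read 10.94, 10.23 and 10.31 at E10.5 and 9.91 and 8.59 at E12.5, without overlap, and was not called (-1.25, adjusted p = 0.107). The remaining Aldh1a3 probe set, at 0.19, was not called either. Cdh3, the P-cadherin gene, differed by -0.10 ± 0.20 (SE; adjusted p = 0.799). Cdh1 was below the filter on dim probe sets, and Pax2 was not analysed here. Without E12.5 B the list had 1 called fall and 2 rises, without E12.5 A or without E11.5 B 4 and 2, and with E10.5 B as the only E10.5 array 2 and 2.

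**Figure D4:**
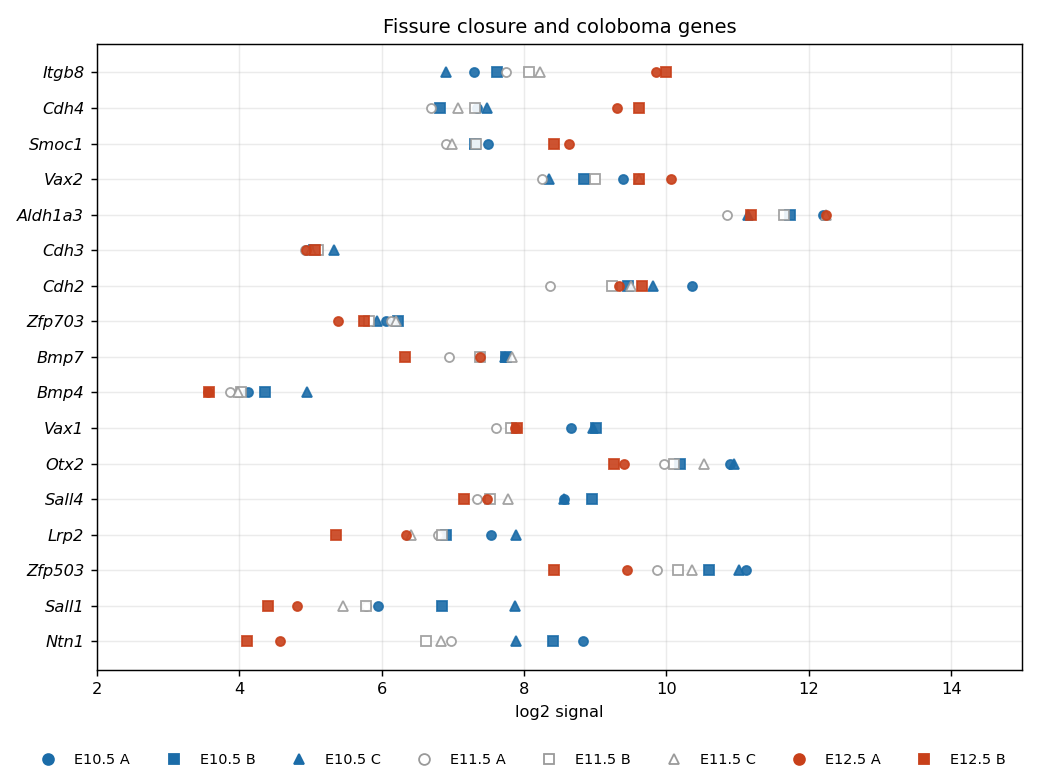
Log2 signal (horizontal) on each of the 8 arrays for the closure genes named in the text, ordered by their change, with colours for the stage, symbols for the arrays A to C and E11.5 drawn open. Itgb8 and Cdh4 at the top are highest at E12.5, and Aldh1a3 overlaps across stages on its brightest probe set, the one drawn. Ntn1 at the bottom steps down from 7.88 or more at E10.5 to 4.56 or less at E12.5.

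In the list of ventral cup and optic stalk regulators, which also holds the dorsal factor Tbx5, more genes were called lower than higher. Of 22 measured, 4 were lower (18.2%) and 1 higher (4.55%), with a median change of -0.27. Nr2f2, an orphan nuclear receptor of the ventral cup and stalk, read 8.79, 9.16 and 8.40 at E10.5 and 6.54 and 5.97 at E12.5. Its fall of 2.53 ± 0.30 (SE; adjusted p = 0.000748) was called in 6 of 6 probe sets and held whichever array was left out. Foxd1, a forkhead factor of the ventrotemporal retina, fell by 2.36 ± 0.45 (SE) from 10.61, 10.34 and 11.78 to 9.01 and 8.08. Nkx6-1, a homeobox factor, fell by 1.92 ± 0.30 (SE) to 3.66 and 3.70, the lower end of the range. Both calls were lost without E12.5 B. The other fall was that of Bmp4, near the lower end too, which is already counted among the closure genes above. Bmpr1b, a BMP receptor of the ventral retina, rose from 7.46 ± 0.40 (SD, n = 3) to 9.46 ± 0.23 (SD, n = 2), lost without E12.5 B, so that without this array 1 gene of the list, Nr2f2, was called. The list had 3 called falls without E12.5 A and 2 with E10.5 B as the only E10.5 array. Tbx5 (-0.94), a dorsal factor, and the ephrin Efnb2 (0.14) were not called.

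Melanin genes rose while several regulators of the pigment epithelium did not. Of 31 measured genes of the pigment epithelium and melanin synthesis, 9 rose and 2 fell, with a median change of 0.70. Tyr, tyrosinase, whose reaction limits the rate at which melanin is made, read 4.25, 3.09 and 3.96 at E10.5 and 9.67 and 9.10 at E12.5, a rise of 5.61 ± 0.47 (SE; 49.0-fold, adjusted p = 8.19e-05). Unlike for the neuronal factors, its E11.5 arrays, at 7.57, 8.81 and 9.28, already lay close to E12.5. Tyrp1, a melanosomal enzyme related to tyrosinase, read 8.49, 6.89 and 6.36 at E10.5 and 10.10 and 9.59 at E12.5, a rise of 2.60 ± 0.54 (SE; adjusted p = 0.0211) in 3 of 3 probe sets. Gpr143, a melanosomal receptor, rose by 2.42 ± 0.37 (SE), Oca2, a melanosomal ion transport protein, by 2.26 ± 0.38 (SE) and Bace2, a protease that processes the melanosomal protein Pmel, by 1.79 ± 0.32 (SE). The calls of Oca2 and Bace2 were lost without either E12.5 array, and that of Tyrp1 without these or E10.5 B. Another Bace2 probe set, at 1.62, was called, and the others, at 1.02, 0.36 and 0.18, were not. Mitf, the master regulator of pigment cells, stood at -1.18 and was not called, from 10.92, 10.50 and 9.79 to 9.77 and 8.67, and Dct at 0.99 was not called. Besides Otx2, the list's other fall was Trpm1, a channel gene of melanocytes and retina, from 11.73, 10.52 and 9.70 to 8.49 and 7.35 (-2.73 ± 0.55, SE; adjusted p = 0.0191), lost without E12.5 B. Of its 4 probe sets 1 was called and 2 had a positive change, so the direction for the gene is uncertain. The list's count of rises rested on both late arrays together, with 2 when either was left out and 2 with E10.5 B as the only E10.5 array.

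The promoters of the melanin enzymes Tyr and Tyrp1 are shown because these called rises share a sequence, the M-box AGTCATGTGCT, a motif known to be bound by Mitf in pigment cells. Both are the 250 bases before the RefSeq start in GRCm38.p6, Tyr at chr7:87493513-87493762 on the minus strand and Tyrp1 at chr4:80833963-80834212 on the plus strand. Capitals mark the motif, searched on both strands.
Tyr: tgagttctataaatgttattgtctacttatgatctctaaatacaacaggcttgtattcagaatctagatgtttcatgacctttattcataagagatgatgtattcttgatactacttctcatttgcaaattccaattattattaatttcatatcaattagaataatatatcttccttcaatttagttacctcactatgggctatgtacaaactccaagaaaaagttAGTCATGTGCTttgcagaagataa
Tyrp1: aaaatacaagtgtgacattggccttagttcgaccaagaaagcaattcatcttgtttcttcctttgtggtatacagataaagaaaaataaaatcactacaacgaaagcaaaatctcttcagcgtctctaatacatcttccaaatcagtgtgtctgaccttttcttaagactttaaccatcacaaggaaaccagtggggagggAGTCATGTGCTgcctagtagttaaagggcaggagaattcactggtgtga
The full motif was in 7 of 32851 promoters, or 0.0213%. Its core CATGTG was in 12.3% of promoters and in 5 of the 5 called pigment genes that had an entry, out of 9 called (Kcnj13, Oca2, Rlbp1, Tyr and Tyrp1). The core lies within the full motif, so the 2 searches overlap. The shares count promoter entries, while a called gene counted once if any of its entries held a match. Tyr and Tyrp1 were shown because they hold the full motif, so the match is a description of these letters and no site of binding.

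Some markers of mesenchyme, which fills the space around the cup and the fissure, rose. Of 28 measured, 4 rose and 0 fell, with a median change of 0.48 and 8 changes below 0, and the log2 of their summed signal was 11.83 to 12.33 on the E10.5 arrays and 12.52 to 12.89 on the E12.5 arrays. Ogn, osteoglycin, a small proteoglycan of connective tissue, read 3.10, 3.09 and 3.11 at E10.5 and 8.81 and 8.36 at E12.5, a rise of 5.48 ± 0.49 (SE; adjusted p = 0.000103). Col8a1, a collagen made by ocular mesenchyme and vessels, went from 4.14, 4.04 and 4.27 to 8.64 and 8.35, a rise of 4.34 ± 0.43 (SE; adjusted p = 0.000248), and Dcn, decorin, rose by 2.15 ± 0.26 (SE). These 3 calls held whichever array was left out and with E10.5 B as the only E10.5 array. Col5a2, a fibrillar collagen subunit, rose by 1.19 ± 0.26 (SE), lost without E10.5 A, E11.5 B or either E12.5 array. The brightest marker of this list at both stages, Fstl1, had 11.36 ± 0.48 (SD, n = 3) at E10.5 and 11.70 ± 0.23 (SD, n = 2) at E12.5 and was not called. E12.5 B was above E12.5 A for 5 of the 28 genes, beside 4770 of all 13050 genes. Such low counts were not particular to mesenchyme, with 6 of 31 pigment genes and 6 of 27 basement membrane genes. The part of mesenchyme in the other results was not tested.

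Few markers of other cells that a captured fissure could hold were called. Of 7 neural crest, glial and melanoblast markers 2 rose, Snai2 by 1.72 ± 0.30 (SE), lost without E12.5 A, and Tfap2b by 1.41 ± 0.34 (SE), lost without E10.5 A, E10.5 B, E11.5 B or E12.5 B. The log2 summed signal of that list went from 8.42 to 8.43 at E10.5 to 9.45 to 9.99 at E12.5. Of 11 lens markers 1 rose, Cryab, a small heat shock protein also made outside the lens, from 3.71, 3.85 and 4.67 to 8.43 and 7.94 (4.10 ± 0.40, SE; adjusted p = 0.000213). The lens crystallins Cryaa (-0.26), Crybb2 (-0.32) and Cryba2 (-0.09) were not called. The summed signal of the lens list, 8.16 to 8.34 at E10.5 and 9.01 to 9.28 at E12.5, included Cryab. Of 8 liver and yolk sac serum protein genes 2 rose. Afp, alpha-fetoprotein, read 2.98, 4.49 and 2.72 at E10.5, 2.84, 2.98 and 2.67 at E11.5 and 9.13 and 8.50 at E12.5, a rise of 5.42 ± 0.42 (SE; adjusted p = 4.39e-05) called in 3 of 3 probe sets. Alb, albumin, rose by 1.08 ± 0.20 (SE) to 4.98 on both late arrays, lost without either, while the apolipoproteins Apoa2 (-0.31) and Apoa4 (-0.44) were not called. The summed signal of this list was 7.87 to 8.0 at E10.5 and 9.20 to 9.70 at E12.5.

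Among blood and vessel markers 1 globin was called. Counts at an unadjusted p under 0.05 are to be set beside 5993 of all 27022 kept probe sets. Of 11 red cell markers, 5 of which had an unadjusted p under 0.05, 1 fell, Hbb-bh1, an embryonic beta-like globin, from 11.42, 11.44 and 10.90 to 8.96 and 7.29 (-3.12 ± 0.48, SE; adjusted p = 0.00424), lost without E12.5 B. Hbb-y, the other embryonic globin of that cluster, was at 14.10 ± 0.30 (SD, n = 3) at E10.5 and 14.03 ± 0.05 (SD, n = 2) at E12.5. Globin genes are near copies of each other, and their probe sets may share signal. The log2 summed signal of red cell markers was 14.07 to 14.49 at E10.5 and 14.06 to 14.17 at E12.5, so hemoglobin transcripts were bright at both stages. Of 13 endothelial markers limma called 0, with 1 at an unadjusted p under 0.05 (summed signal 9.48 to 9.84 and 9.76 to 10.30), among them Kdr at 0.76 ± 0.30 (SE). Of 16 macrophage markers 0 were called, with 4 at an unadjusted p under 0.05. Their summed signal, 9.84 to 12.50 at E10.5 and 12.88 to 12.97 at E12.5, was carried by 1 probe set of Laptm5, which is 1 of the 28 that read low on E10.5 A and C; the gene's other 4 probe sets changed by -0.12 to 0.03. Csf1r, a macrophage receptor, read 8.77 ± 1.20 (SD, n = 3) and 9.75 ± 0.32 (SD, n = 2). Of 8 surface ectoderm markers (8.41 to 8.67 and 9.0 to 9.05) and of 7 muscle markers (7.18 to 7.41 and 7.07 to 7.13) 0 were called, and 0 had an unadjusted p under 0.05. In each of the 9 lists for other cells, 5 to 14 symbols had no kept probe set with exactly 1 gene symbol and were not tested. Such a symbol may be dim, may share its probe sets with another gene, or may have another name in the annotation.

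Adhesion molecules rose in part. Of 25 measured cadherins and protocadherins 5 rose (20.0%) and 1 fell (4.0%), with a median change of 0.05. Besides Cdh4, the rises were those of Pcdh8 (3.26 ± 0.48, SE), from 4.72, 3.60 and 3.12 to 6.28 and 7.87, Pcdh19 (2.50 ± 0.43, SE), Fat4 (2.06 ± 0.32, SE) and Cdh9 (1.68 ± 0.25, SE). The calls of Pcdh19, Fat4 and Cdh9 were lost without E12.5 B. Cdh6, a classical cadherin, read 8.72, 9.21 and 8.98 at E10.5, 7.37, 7.07 and 7.43 at E11.5 and 7.17 and 5.32 at E12.5, a fall of 2.73 ± 0.44 (SE; adjusted p = 0.00535) lost without E12.5 B.

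Of 27 basement membrane genes 4 rose and 0 fell, with a median change of 0.11; after quantile normalization 4 were called higher and 2 lower. The rises were Npnt, nephronectin, a ligand of integrins (2.33 ± 0.37, SE), the collagen IV chains Col4a4 (1.76 ± 0.29, SE) and Col4a5 (1.41 ± 0.29, SE), and Nid2, nidogen 2 (1.29 ± 0.28, SE). The call of Npnt was lost without E12.5 A, that of Col4a4 without E12.5 B, and those of Col4a5 and Nid2 without E10.5 A or either E12.5 array, leaving 1 with either late array left out and 0 with E10.5 B as the only E10.5 array. Laminin genes were not called, with Lamb1 at -1.40 and Lama1 at -0.86 the lowest of them. Of 29 matrix proteases and inhibitors 2 fell (6.9%), the secreted proteases Adamts9 (-2.08 ± 0.49, SE; adjusted p = 0.035) and Htra1 (-1.14 ± 0.26, SE; adjusted p = 0.0317). Adamts9 read 8.34 and 6.33 on the E12.5 arrays A and B, against 9.84, 9.22 and 9.19 at E10.5. Its other probe sets, at -0.58 and -1.33, were not called. The call of Adamts9 was lost without E10.5 A, E10.5 B, E11.5 B or E12.5 B, and that of Htra1 without E10.5 A, E10.5 B, E11.5 B or either E12.5 array.

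Genes of the signalling pathways were called in both directions, where over all genes 3.49% were called higher and 1.78% lower. In the Wnt pathway 6 of 41 measured genes fell (14.6%) and 3 rose (7.32%), with a median change of -0.13; after quantile normalization 8 were called lower and 5 higher. Dkk1, a secreted Wnt antagonist, read 10.43, 9.27 and 8.79 at E10.5, 9.04, 9.03 and 9.56 at E11.5 and 6.56 and 6.23 at E12.5. Its fall of 3.10 ± 0.42 (SE; adjusted p = 0.00208) held in 2 of 2 probe sets and whichever array was left out. The ligands Wnt8b and Wnt5b fell by 2.42 ± 0.51 (SE) and 2.19 ± 0.35 (SE), and the receptor Ror2 by 1.77 ± 0.34 (SE). The calls of these 3 were lost without E12.5 B, and that of Wnt8b without E12.5 A too. Without E12.5 A the pathway had 1 called rise and 4 falls, without E12.5 B 1 and 1, without E11.5 B 1 and 4, and with E10.5 B as the only E10.5 array 1 and 4.

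In the BMP and TGF-beta pathway 3 of 37 genes rose (8.11%) and 2 fell (5.41%), with a median change of 0.14. Fst, follistatin, an antagonist of activin and BMP ligands, read 9.65, 9.59 and 8.66 at E10.5, 7.76, 7.76 and 8.25 at E11.5 and 6.90 and 5.95 at E12.5. The fall of 2.87 ± 0.38 (SE; adjusted p = 0.00166) held whichever array was left out. The ligand Bmp2 rose by 1.68 ± 0.28 (SE), lost without E12.5 A. In the hedgehog pathway 3 of 16 fell (18.8%) and 1 rose (6.25%), with a median change of -0.19; after quantile normalization 3 were called lower and 2 higher. Scube2, which helps hedgehog ligands leave the cells that make them, read 6.27, 7.11 and 6.80 at E10.5 and 4.66 and 4.52 at E12.5, a fall of 2.14 ± 0.29 (SE; adjusted p = 0.00221) that held whichever array was left out. Gli1, a transcription factor and target of the pathway, fell by 0.90 ± 0.21 (SE) to 4.11 and 4.08, Scube1 fell by 1.27 ± 0.32 (SE), and Hhip, a hedgehog antagonist, rose by 1.33 ± 0.27 (SE). These calls were lost without E12.5 A, those of Gli1 and Scube1 also without E10.5 B, E11.5 B or E12.5 B, and that of Scube1 without E10.5 C or either other E11.5 array.

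In the FGF pathway 2 of 25 rose (8.0%) and 1 fell (4.0%), with a median change of 0.20, and 2 were called in each direction after quantile normalization. Besides Fgf15, Etv5, an ETS factor induced by FGF signals, rose by 1.54 ± 0.23 (SE) whichever array was left out, and the ligand Fgf18 fell by 1.41 ± 0.26 (SE), lost without either E12.5 array. In the retinoic acid pathway 1 of 17 rose (5.88%), with a median change of -0.06. It was Cyp1b1, a cytochrome P450 that can make retinoic acid, from 9.43, 9.49 and 9.56 to 11.55 and 11.45 (2.01 ± 0.33, SE; adjusted p = 0.00653), lost without either E12.5 array.

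Of 51 axon guidance genes 4 rose (7.84%) and 4 fell (7.84%), with a median change of -0.20. The ephrin receptor Epha5 read 5.04, 5.74 and 4.86 at E10.5 and 8.71 and 9.17 at E12.5, a rise of 3.72 ± 0.34 (SE; adjusted p = 0.000118) with 3 of 4 probe sets called. Its relative Epha3 rose by 2.94 ± 0.38 (SE), and Plxnc1, a semaphorin receptor, rose by 2.08 ± 0.25 (SE) from 5.45, 5.40 and 5.45 to 7.46 and 7.57. These 3 calls held whichever array was left out. Nrp1, a receptor of semaphorins and VEGF, rose by 2.22 ± 0.51 (SE), lost without E10.5 C, E11.5 A, E11.5 B or E12.5 B. Beside Ntn1, Epha4 fell by 1.57 ± 0.34 (SE), lost without either E12.5 array.

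Some amino acid and stress response genes fell. Of 31 measured genes of the integrated stress response and serine synthesis, 6 fell and 0 rose, with a median change of -0.49. Phgdh, the first enzyme of serine synthesis, read 12.63, 11.89 and 13.42 at E10.5, 10.75, 11.02 and 11.40 at E11.5 and 10.56 and 9.78 at E12.5. Its fall of 2.48 ± 0.46 (SE; adjusted p = 0.0128) was called in 3 of 4 probe sets. Eif4ebp1, a repressor of cap-dependent translation, fell by 2.75 ± 0.55 (SE) from 11.28, 11.06 and 13.29 to 9.35 and 8.90. Psat1, the next enzyme of serine synthesis after Phgdh, fell by 1.32 ± 0.33 (SE). Asns, asparagine synthetase, fell by 1.51 ± 0.26 (SE) from 8.99, 9.13 and 9.38 to 7.80 and 7.51. The other Asns probe set, at -1.07, was not called (adjusted p = 0.055). Sars, a seryl-tRNA synthetase, and Sesn2, a stress-induced sestrin, fell by 1.69 ± 0.43 (SE) and 0.93 ± 0.24 (SE) close to the threshold (adjusted p = 0.0485 and 0.0499). None of the 6 calls held without E12.5 B, 2 held without E12.5 A, and 0 held with E10.5 B as the only E10.5 array; 3 were lost without E11.5 B (Psat1, Sars and Sesn2) and the same 3 without E10.5 A. The factor Atf4 itself (-0.32) and its targets Trib3 (-0.14) and Ddit3 (-0.20) were not called. The Asns promoter is shown because it holds the amino acid response element, a motif through which Atf4 is known to act, as the 250 bases before its RefSeq start in GRCm38.p6, at chr6:7693210-7693459 on the minus strand. Capitals mark TGATGNAA, searched on both strands.
Asns: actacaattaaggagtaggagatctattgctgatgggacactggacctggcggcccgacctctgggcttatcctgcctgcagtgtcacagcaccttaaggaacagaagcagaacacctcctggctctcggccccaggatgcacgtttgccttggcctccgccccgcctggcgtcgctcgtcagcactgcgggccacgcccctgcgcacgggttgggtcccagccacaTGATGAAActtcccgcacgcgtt
This motif was in 3.45% of 32851 promoters and in 1 of the 5 called genes of the list that had an entry. The share counts promoter entries, while a called gene counted once if any of its entries held a match. Asns was shown because it holds the motif, so the match is a description of these letters and no site of binding.

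Glycolytic and hypoxia genes had a median change of -0.53, with 3 of 26 called lower and 0 higher, or 4 and 1 after quantile normalization. Aldoa, a glycolytic aldolase, read 10.76, 10.88 and 12.24 at E10.5 and 9.38 and 8.75 at E12.5 (-2.23 ± 0.46, SE), and Egln3, a hypoxia-induced prolyl hydroxylase, and Hk2, a hexokinase, fell by 1.32 ± 0.29 (SE) and 1.19 ± 0.25 (SE). The 3 calls were lost without E12.5 B, those of Aldoa and Hk2 also without E12.5 A, and those of Egln3 and Hk2 without E11.5 B. Another Aldoa probe set, at -2.16, was called, and the others, at -1.40, -1.56 and -1.15, were not. Of 54 oxidative phosphorylation genes 1 was called, Atp5g1 (-1.17 ± 0.25, SE), with a median change of -0.49, and of 27 ribosomal protein genes 1, Rps15 (-1.62 ± 0.37, SE), with a median of -0.43. After quantile normalization those medians were -0.31 and -0.13, beside -0.07 for all genes, and the calls were 7 lower and 1 higher for oxidative phosphorylation and 3 lower for ribosomal proteins. Of 20 cholesterol synthesis genes 1 fell (5.0%), Tm7sf2, a sterol reductase (-1.07 ± 0.23, SE). The calls of Atp5g1, Rps15 and Tm7sf2 were each lost without E10.5 A, E11.5 B or either E12.5 array, and that of Rps15 without E10.5 C.

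Of 18 early embryonic genes, many of them known targets of let-7 microRNAs, 3 fell and 0 rose, with a median change of -0.42; after quantile normalization 5 were called lower and 1 higher. Dusp9, a phosphatase of MAP kinases, read 8.57, 8.51 and 8.40 at E10.5, 7.05, 7.32 and 7.82 at E11.5 and 6.26 and 4.89 at E12.5, a fall of 2.92 ± 0.38 (SE; adjusted p = 0.00133) in 3 of 3 probe sets and whichever array was left out. Beside it and Sall4, the nuclear receptor Nr6a1 fell by 0.85 ± 0.19 (SE), lost without E10.5 B, E11.5 B or either E12.5 array. Hmga2, a chromatin protein of this list, read 12.69, 12.16 and 13.15 against 11.78 and 9.81 and was not called. Of 24 apoptosis genes 1 rose (4.17%) and 1 fell (4.17%), with a median change of -0.18, beside 3.49% higher and 1.78% lower over all genes. The rise was that of the survival gene Bcl2 (1.54 ± 0.33, SE), whose other probe sets, at -0.19, 0.52, 0.93 and 0.77, were not called. The fall was that of the pro-apoptotic Bmf (-1.81 ± 0.45, SE), whose other probe set, at -0.48, was not called. Bcl2 was not called without E10.5 A, E11.5 B or either E12.5 array, nor Bmf without E10.5 A, E10.5 C, E12.5 B or any 1 of the E11.5 arrays. Of 20 immediate early genes 3 rose, Dusp1 (1.47 ± 0.27, SE), Jun (1.26 ± 0.30, SE) and Klf6 (1.09 ± 0.27, SE), and Egr3 fell (-0.74 ± 0.19, SE), with a median change of -0.03; after quantile normalization 2 were called higher and 0 lower. Each of the 4 calls was lost without E12.5 B. That of Klf6 was lost also without E10.5 B, E10.5 C or E11.5 B, that of Jun without any E10.5 array, E11.5 B or E12.5 A, and that of Egr3 without E10.5 A, E10.5 C, E12.5 A or any 1 of the E11.5 arrays.

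Of the 12 largest falls, those not in a list above were Car3, Crispld2, Cplx3 and Col13a1. Car3, a cytosolic carbonic anhydrase, read 8.23, 7.11 and 8.51 at E10.5 and 5.47 and 4.65 at E12.5 (-2.89 ± 0.39, SE). Cplx3, a complexin of retinal ribbon synapses, read 7.84, 6.91 and 7.45 at E10.5, 7.16, 7.67 and 7.92 at E11.5 and 4.97 and 4.46 at E12.5 (-2.69 ± 0.33, SE). Both held whichever array was left out. Crispld2, a secreted protein, fell by 2.83 ± 0.47 (SE) and Col13a1, a transmembrane collagen, by 2.61 ± 0.38 (SE), both lost without E12.5 B.

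**Figure D5:**
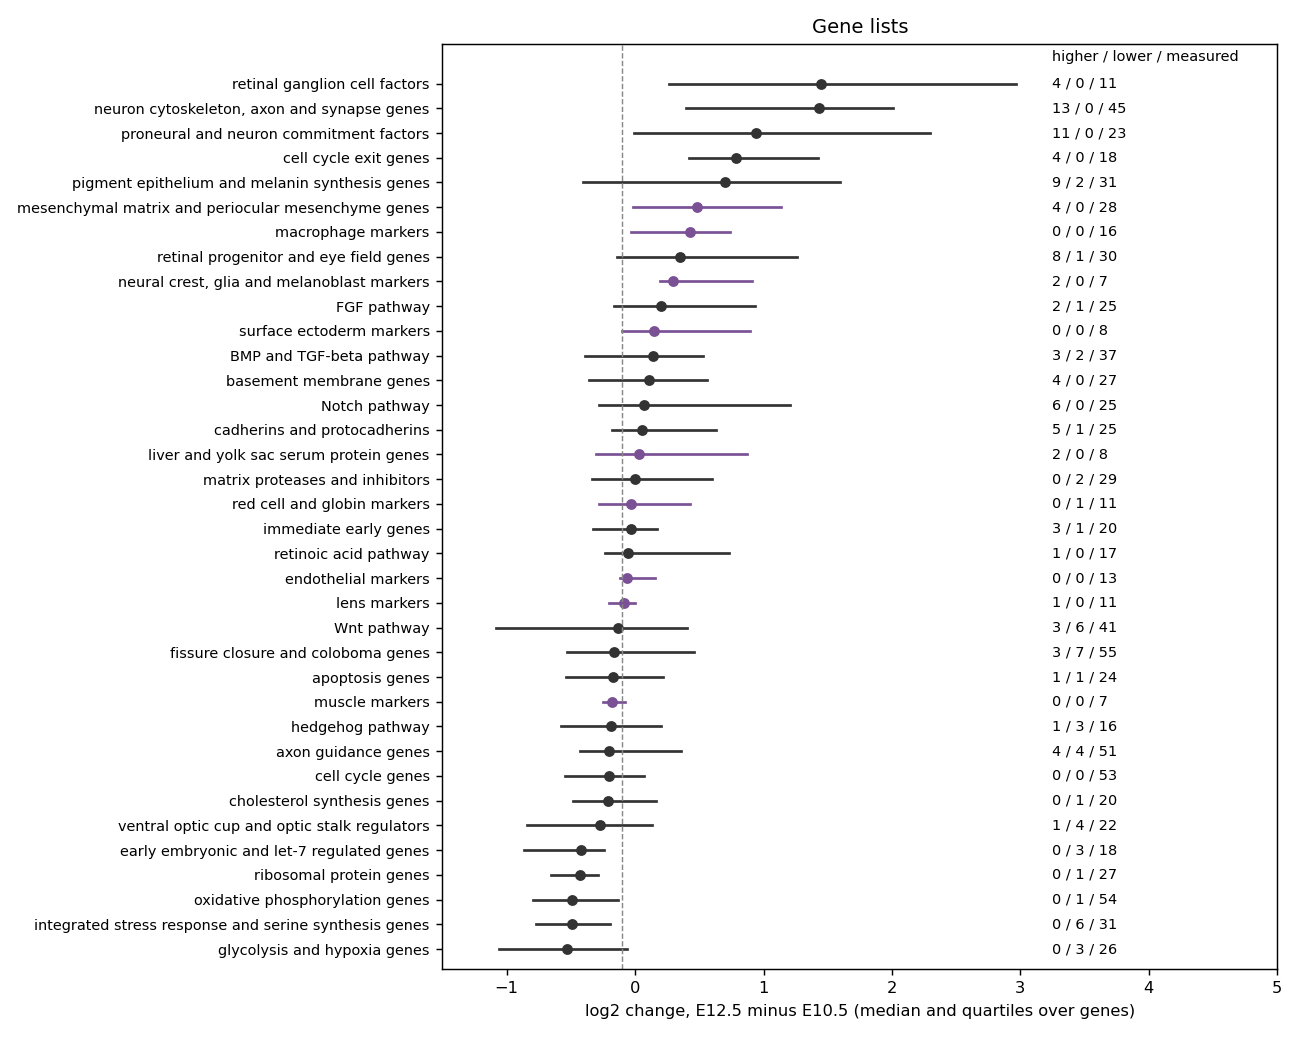
Median log2 change between E10.5 and E12.5 (points) with the quartiles over genes (bars) for the 36 gene lists, and the number of genes called higher, called lower and measured at the right. Purple marks lists for cells other than the retina and pigment epithelium, and the dashed line is the median of all genes, -0.10. Lists of ganglion cells and neurons lie farthest right (1.45 and 1.43), and the glycolysis list farthest left (-0.53).

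Seen against E11.5, the rises and falls were placed differently in time, as a description only. Of the 455 genes called higher, the E11.5 mean lay nearer to E10.5 for 369 and nearer to E12.5 for 86. Neuronal factors were of the first kind, and Tyr, Ogn, Col8a1 and Cryab of the second. After quantile normalization the split was 332 and 123. Of the 232 called lower, 104 lay nearer to E10.5 and 128 nearer to E12.5, but after quantile normalization 169 and 63, so for the falls the larger share depends on the scaling.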

How the data were processed

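RNA from the captured tissue was amplified by repeated in vitro transcription, labelled with biotin and hybridised to 1-colour expression arrays, per the labels' protocols. Such amplification favours 3 prime ends. The labels call arrays of a stage biological replicates, and disagree on whether the 3 pooled embryos came from 1 litter or from separate litters, so p-values measure the spread between these pools. The deposited table holds log2 signals for 45101 probe sets. The submitters' processing notes list GCOS 1.4 without a role; summarization, background and normalization are not given in the sources used here, and detection calls were not used. The number of arrays limits the precision.

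The 64 control probe sets and the lowest 40% by mean signal (under 3.94) were removed, which kept 27022. Stage was fitted with limma 3.58.1 in R 4.3.3 over all 8 arrays (5 residual degrees of freedom; empirical Bayes with a trend; two-sided; Benjamini-Hochberg). Fold changes understate genes near the lower end of the range. Gene names came from the platform annotation: 932 probe sets had several symbols and 9160 none, and were named from neither; 34741 of those with 1 matched RefSeq identifiers. A gene's brightest kept probe set stood for it, and a gene's other kept probe sets were not always called with it. Probe sets such as those of Hes5, Dner, Pcdh8, Tyrp1, Snai2, Phgdh, Asns, Eif4ebp1, Wnt5b, Aldoa and the globins carry a suffix for probes that can match other transcripts.

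The members and the 36 lists (1112 symbols, 851 measured) were chosen with earlier results of these data known. Named were the 12 largest called rises and falls without overlap (RIKEN and predicted genes left out), up to 6 called genes per list or 2 uncalled ones, the closure genes, and per other-cell list its brightest marker; other uncalled members and Dcx, Tubb3 and Mki67 were picked after their values were seen. The fit was tested on simulated data with independent noise and 50 changed probe sets per size. It recovered 16% of changes of 1 log2 unit, 74% of 2, 98% of 3 and 100% of 4, with 7 false calls. A gene not called can therefore still have changed. Alternatives were quantile normalization, median centring, pseudocounts of 16 and 64, no filter or the lowest 60% removed, no trend, only the 5 arrays compared, array weights, a replicate block and each array left out; E10.5 B as the only E10.5 array was added after seeing the data.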

Additional observations from a re-analysis of the deposited data

How the results depend on the processing

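None of the 115 called genes that the naming rules chose changed direction under any alternative run. Their E10.5 and E12.5 arrays did not overlap, so most alternatives could not have changed a direction. Only quantile normalization, median centring and the replicate block could have done so. Dcx, Tubb3, Hes6, Kcnj13 and Rlbp1, named outside those rules, were not followed through the alternatives. Against 1255 called probe sets (833 higher, 422 lower), 509 were called with only the E10.5 and E12.5 arrays in the fit (421 higher, 88 lower) and 213 with E10.5 B as the only E10.5 array (154 higher, 59 lower). Array weights gave 3371 (1933 higher, 1438 lower), but the weights did not converge. Quantile normalization gave 642 lower, and no filter on dim probe sets 281 lower. With 1 array left out the total ranged from 209 to 1610, the number higher from 187 to 870 and the number lower from 22 to 746, lowest in each case without E12.5 B. The main fit did not pair samples by letter. Same-letter correlations of deviations from the stage means ran from -0.39 to 0.13. Deviations cancel within a stage of so few arrays, so these values cannot decide whether arrays of the same letter are linked. With the letters as a replicate block 531 were called (447 higher, 84 lower). Of the 115 called named genes, 110 stayed called after quantile normalization, 71 with only the 5 arrays, 70 with the replicate block, 76 without E12.5 A, 47 with B left out instead, and 33 under every alternative run. Reversals were of uncalled genes. With 1 array left out Cdh3 ranged from -0.19 to 0.012, Aldh1a3 from -0.50 to 0.54 and Hbb-y from -0.24 to 0.041. Array weights gave Aldh1a3 -0.080 and Hbb-y 0.054. Hbb-y was at 0.26 after quantile normalization and 0.15 with the replicate block. With E10.5 B alone at E10.5, Aldh1a3 was at -0.021, Hbb-y at 0.26, Cdh2 at 0.030 and Ckm at 0.034. The causes were not tested beyond the arrays removed. Signals near 3 to 4 are at the lower end of the range, where falls cannot be measured further.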

Other observations

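Sex-linked genes differed between pools, and they were picked after their values were seen. Xist, the RNA made from the inactive X chromosome of female cells, read 3.01, 8.84 and 4.19 on the E10.5 arrays A, B and C, 9.5, 3.95 and 9.43 on the E11.5 arrays, and 11.23 and 11.27 on both E12.5 arrays. Its change of 5.91 between E10.5 and E12.5 would be among the largest rises, but it was not called (adjusted p = 0.0694). The Y-linked gene Eif2s3y read 9.25, 8.58 and 8.91 at E10.5, 4.79, 8.60 and 8.55 at E11.5, and 7.63 and 7.34 at E12.5. Kdm5d, also Y-linked, read 7.29, 7.08 and 7.94, then 4.29, 7.30 and 6.48, then 5.99 and 5.95. Neither Y-linked gene was called. The pools with Xist near the lower end of the range were E10.5 A, E10.5 C and E11.5 B, and the pool with Y-linked genes there was E11.5 A. The part of the sex make-up of the pools in the comparison was not tested.

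The 28 probe sets that read more than 2 log2 units lower on E10.5 A and C than on each other array had a median change of 3.19 between E10.5 and E12.5, and 23 of them had 1 gene symbol. Among them were probe sets of Tpx2, a spindle protein, Igfbp5, an insulin-like growth factor binding protein, and Laptm5. E10.5 A and C read them at 3.07 to 11.1. Of these probe sets limma called 0, with 26 at an unadjusted p under 0.05, and both counts follow in part from how they were picked.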
